A study of Sus scrofa with 9 samples.

Results

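Genes of meiotic recombination, chromosome cohesion and DNA repair were read from testis arrays of boars by a search of the probe symbols for SYCP, MSH, MLH, RAD, BRCA, FANC, XRCC, ERCC, SMC, STAG, ATM, ATR, NBN, MRE11, DMC1, SPO11, HORMAD, MEI1, H2AFX, MDC1, TOPBP1, PARP, LIG and the DNA polymerases. The search found 53 genes with 102 probes among the 60889 non-control probes of the array, on which 6819 gene symbols known to the pig annotation appear. Of these, 50 genes had a probe in the value table deposited by the authors, and each gene was represented by its brightest probe there. All 50 were retained by the filter on dim probes and were well above background on all 9 arrays. POLD4 was left without a representative probe, and so were ERCC2 and ERCC6, whose probes were not well above background on at least 2 arrays of any group; both ERCC6 probes are annotated with a retinol binding protein. No probe carried the symbols SYCP1, SYCP2, SYCP3, SMC1B, STAG3, MEI1, DMC1, MSH4, MLH3, ATR, H2AFX or TOPBP1, so these genes were not analysed here under those names. The search also took in genes with other roles: PARP10, PARP11, PARP12, PARP14 and PARP16, which are ADP-ribosyltransferases, and POLDIP2 and POLDIP3, which are named for binding a polymerase and are not polymerases themselves.

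Germ cells cut their own chromosomes during meiosis and repair the breaks by exchange with the homologous chromosome. SPO11 makes the breaks, the MRN complex (MRE11A, RAD50 and NBN) trims them, and strand exchange proteins carry the single strand to the other chromosome, while HORMAD proteins line the axes on which this takes place. Cohesin holds sister chromatids together, MutS and MutL proteins stabilise and resolve exchanges, and the same cells also carry the general machinery for end joining, excision repair and replication.

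Each of the 3 groups held 3 arrays of testis biopsy RNA. The control arrays came from fertile boars with normal semen, the oligospermic arrays from 1 boar with low sperm numbers, and the t(1;14) arrays from 1 Landrace × Duroc crossbred boar. That animal carries a balanced exchange between chromosomes 1 and 14 and has few, poorly motile and malformed sperm. The oligospermic and t(1;14) arrays are therefore repeat extractions from a single animal each. The fit pools the spread of the 3 groups, and the control arrays may also hold differences between boars. The p-values thus measure the spread between extractions, and perhaps between control boars, but not between carriers. The control boar behind each array was not given in the sources used here. The boars' ages were not given either. Every slide held 1 array of each group. Between 37087 and 40632 probes were well above background on each array, and the median SD of the 50 genes was 0.18 on the log2 scale in control arrays, 0.13 in oligospermic arrays and 0.087 in t(1;14) arrays. Of 9 spermatid markers with a probe 8 were tested, and all 8 were well above background on every array, as were 8 of 8 Leydig cell markers and 7 of 9 Sertoli cell markers with a probe. A lower signal in whole-biopsy RNA may mean fewer cells of a type or less RNA per cell, and these cannot be told apart.

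The array reads each gene through probes of 60 bases, of which the first 30 are shown for the genes on which the results turn, 5′ to 3′. The first set holds probes of genes that differed between the groups in different roles, in lower case with no overlap marked. The STAG2 probe was not compared with the other STAG2 probes for overlap.
SPO11: ctcatcagattatctttccagagtgtactt
RAD21: cacacaaaacccttcaagaaaatctagatt
XRCC6: gcgaaaacaagacaatgaaagctctggaag
BRCA1: tgggagctcttccatccttccacagccccg
NBN: ccagagccatgggtgtggctgtttctacag
STAG2: caccactgcatttactggaactgctgagag
HORMAD1: gccctaccactgaaaacttataggtagtct
The next set holds probes of the same gene that gave unlike readings or that check one another, and capitals mark the longest run shared with an overlapping probe of that gene.
SPO11, dim probe: tcggggtcataccacattcactcaccgaga
RAD23B, probe that fell: acgacaacaacaacaagttctggaggacat
RAD23B, base 2156: gctaCCTAGAATCTACAGTCTATTTCATGG
RAD23B, base 2160: CCTAGAATCTACAGTCTATTTCATGGCAAC
RAD51AP1, probe used: cccgtactagtGTGTGTCTCCTACTTAAAA
RAD51AP1, overlapping probe: ccagcGTGTGTCTCCTACTTAAAAGTAGAT

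In the t(1;14) testis, the break-processing genes NBN and MRE11A and 4 of 6 cohesin and related SMC genes were higher than in controls, while RAD21, XRCC6 and BRCA1 were lower; of the 4, the SMC3 and SMC6 calls were lost without any one t(1;14) array and the STAG2 call without t(1;14) replicate 3. SPO11 was lower on its brighter probe and not on its dim one. Of the 50 genes, 13 rose (26%) and 6 fell (12%) at an adjusted p of at most 0.01 (limma across all retained probes, Benjamini-Hochberg). Over all 41105 retained probes 20.0% were called higher and 18.5% lower, so that 38% of the genes and 38.5% of all probes were called. With 1 probe per gene symbol, the brightest as for the 50 genes, 21.2% of 5582 symbols were called higher and 22.5% lower. None of the 50 reached the study's stricter rule, which adds a log2 fold change of at least 2 in either direction and which 5.82% of all probes met. An unadjusted p under 0.05 (limma) was found for 32 of the 50 and for 24614 of all 41105 probes. The median log2 fold change of the genes was 0.18, against 0.13 over all probes and 0.08 with 1 probe per symbol, and the values ran from -1.61 to 1.16. When each array was scaled to its 75th percentile instead, the median of the genes was 0.05 and that of all probes 0.15, so which of the medians is the higher depends on the scaling. The median of the genes also moved when single control arrays were left out, as given below. All 19 calls had the same sign within each of the 3 slides, as did 42 of all 50 genes, called or not. The calls were made on the same arrays, so this is no separate check of them. With slide as a block 15 genes were called higher and 8 lower. The number called higher fell to 8 with the 6 arrays of the comparison normalised alone, to 8 without oligospermic replicate 2, to 8 without t(1;14) replicate 1, to 7 without replicate 2 and to 6 without replicate 3. The shares of all probes called under these settings are not given here, so a change in the call rate of the whole array cannot be told apart.

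**Figure D1:**
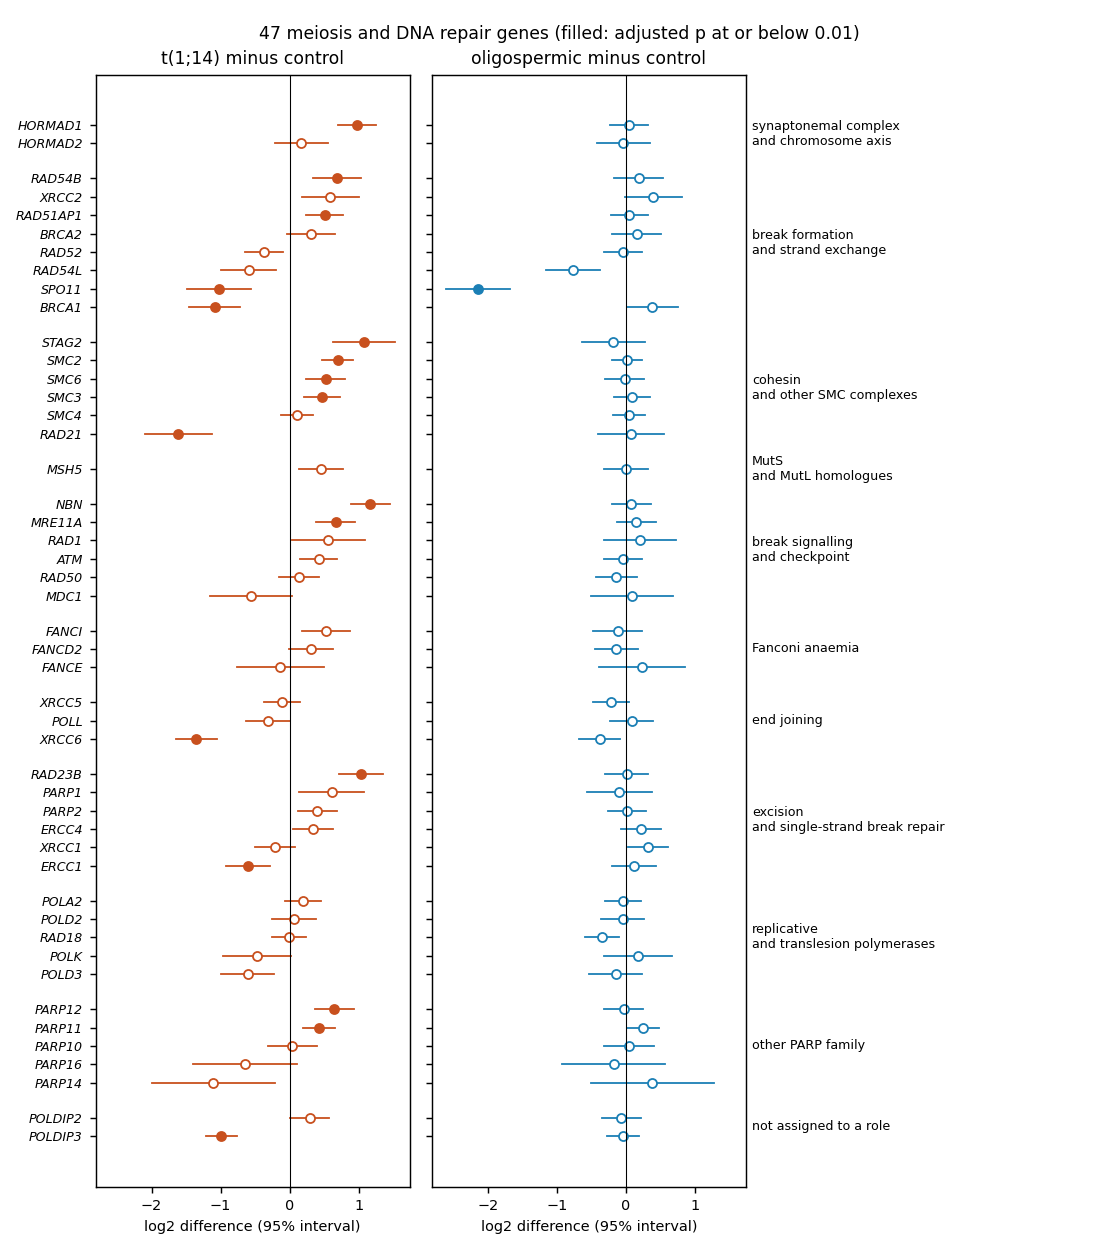
Log2 differences of 47 of the genes from the control arrays, with 95% intervals, in the t(1;14) boar (left) and the oligospermic boar (right); each row is a gene, rows are grouped by role, and filled circles mark an adjusted p of at most 0.01. The left panel holds 12 filled circles above 0 and 6 below it, and the right panel holds only the filled circle of SPO11.

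Controls and the oligospermic boar were nearly level for the same genes. Only SPO11 was called, which makes 0 genes higher, against 0.127% of all probes, and 1 gene lower, against 0.0973%; it also met the stricter rule, as did 0.112% of all probes. The median log2 fold change of the 50 genes was 0.01, and 47 of them differed by less than 0.5 from controls in either direction. Of the 50, 7 had an unadjusted p under 0.05 (limma), as did 5331 of all 41105 probes. The t(1;14) arrays set against the oligospermic arrays gave 12 genes higher (24%) and 6 lower (12%), where 22.8% and 19.9% of all probes were called, and none met the stricter rule, which 6.53% of probes met. These comparisons share arrays: the control arrays serve in both comparisons with controls, and the t(1;14) arrays in both comparisons of that boar.

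**Figure D2:**
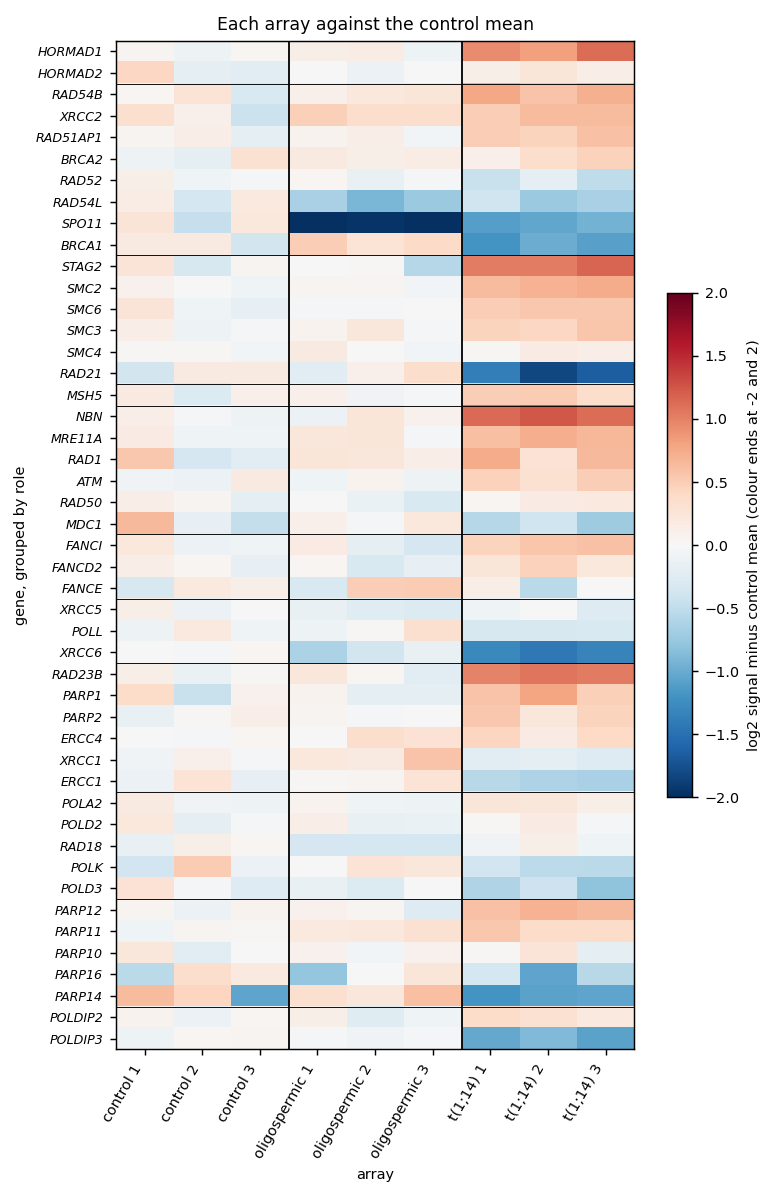
Log2 signal of 47 of the genes on each array minus the mean of the 3 control arrays; columns are arrays, rows are genes grouped by role, and colour runs from blue (lower) to red (higher). SPO11 is the darkest blue row in the oligospermic arrays, and RAD21, XRCC6, BRCA1 and POLDIP3 are blue in the 3 t(1;14) arrays alone or most strongly there.

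SPO11, the enzyme that makes meiotic double-strand breaks, differed between all the groups. Its log2 signal was 11.13, 10.42 and 11.09 in the control arrays, 8.80, 8.92 and 8.50 in the oligospermic arrays, and 9.78, 9.84 and 9.94 in the t(1;14) arrays. The groups did not overlap, and controls were highest, the t(1;14) boar intermediate and the oligospermic boar lowest. Lack of overlap was common over all probes: 61.6% between t(1;14) and control, 15.5% between oligospermic and control and 70.4% between t(1;14) and oligospermic. The oligospermic boar had a 4.41-fold lower level than controls (log2 fold change -2.14 ± 0.20 (SE), n = 3 arrays per group, adjusted p = 0.0033, limma). The difference was -2.33, -1.50 and -2.59 within the slides. With the slide as a block the adjusted p was 0.018, and leaving out any one of the oligospermic or t(1;14) arrays also put it above 0.01. In the t(1;14) boar SPO11 was 2.04-fold lower than in controls (log2 fold change -1.03 ± 0.20, adjusted p = 0.0031, limma) and 2.16-fold higher than in the oligospermic boar (adjusted p = 0.0018, limma). A dim SPO11 probe further along the transcript, near base 1885 where the brighter one starts at base 1062, agreed in part. It read 5.43, 4.58 and 5.15 in controls, 3.98, 3.83 and 3.57 in the oligospermic arrays, where it was well above background on 1 of 3, and 5.60, 5.95 and 5.79 in the t(1;14) arrays. Both probes were lowest in the oligospermic boar, but on the dim one the t(1;14) arrays lay above the controls, by 0.73 (adjusted p = 0.022, limma), and with the median of both probes the t(1;14) difference from controls was -0.15 (adjusted p = 0.57, limma). The direction of SPO11 in the t(1;14) boar thus depends on the probe, and its call against controls was also lost without control replicate 3 or t(1;14) replicate 1 or 2.

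Among the other genes of break formation and strand exchange, RAD54B and RAD51AP1 rose and BRCA1 fell in the t(1;14) boar. BRCA1, which loads the strand exchange machinery on breaks and marks unpaired chromosomes in meiosis, read 11.24, 11.23 and 10.69 in controls, 11.54, 11.32 and 11.44 in the oligospermic arrays and 9.86, 10.06 and 9.97 in the t(1;14) arrays. Every t(1;14) array lay below every other array. The log2 fold change from controls was -1.09 ± 0.16 (2.13-fold lower, adjusted p = 0.00073, limma). RAD54B, a helper of strand exchange, rose by 0.69 on the log2 scale, and RAD51AP1, an accessory factor of strand exchange, by 0.50. The call of RAD54B was lost without t(1;14) replicate 1, 2 or 3, control replicate 1 or 3, or oligospermic replicate 2, and that of RAD51AP1 without any of the same arrays or oligospermic replicate 1. BRCA2, a mediator of strand exchange, whose symbol carries a question mark in the files, was dim and gave 0.31 with a 95% interval from -0.04 to 0.66. RAD54L lay below controls in both boars, by log2 differences of -0.60 in t(1;14) (adjusted p = 0.018, limma) and -0.77 in the oligospermic boar (adjusted p = 0.091, limma). It read 8.18, 7.68 and 8.22 in controls, 7.38, 7.12 and 7.29 in the oligospermic arrays and 7.63, 7.28 and 7.38 in the t(1;14) arrays. The controls did not overlap with either boar, although no difference passed the test. Of all probes, 61.6% likewise did not overlap between t(1;14) and control and 15.5% between oligospermic and control.

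**Figure D3:**
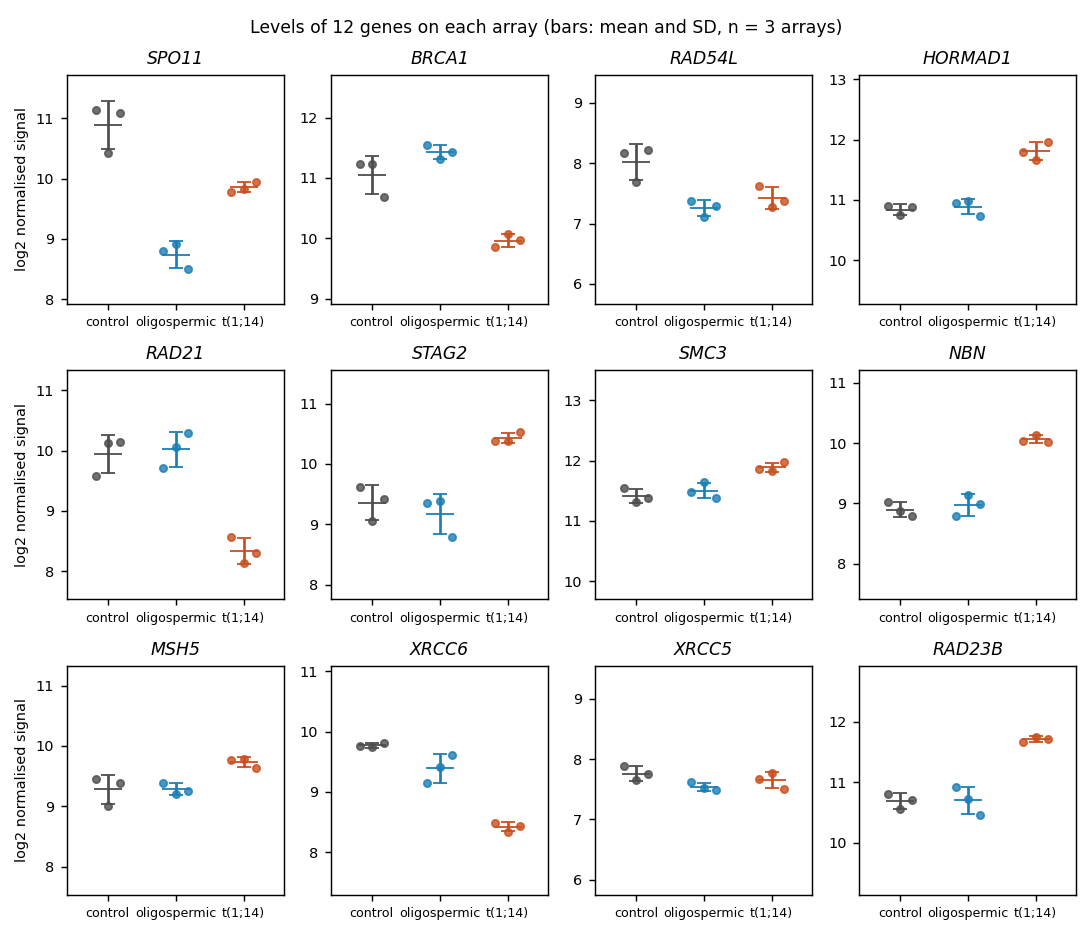
Log2 normalised signal of SPO11, BRCA1, RAD54L, HORMAD1, RAD21, STAG2, SMC3, NBN, MSH5, XRCC6, XRCC5 and RAD23B on each array; points are arrays, bars the mean and SD of the 3 arrays of a group, and every panel spans the same log2 range around its own mean. For RAD21 the t(1;14) arrays lie between 8.14 and 8.57 and all other arrays at 9.58 or above, while for XRCC5 the t(1;14) and control arrays overlap.

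The chromosome axis was read through HORMAD1 and HORMAD2, which mark axes that are not yet paired. HORMAD1 read 10.90, 10.74 and 10.88 in controls, 10.95, 10.98 and 10.74 in the oligospermic arrays and 11.79, 11.67 and 11.96 in the t(1;14) arrays. It was 1.95-fold higher in the t(1;14) boar than in controls (log2 fold change 0.97 ± 0.12, adjusted p = 0.00028, limma). HORMAD2 gave 0.17 with an interval from -0.22 to 0.55, and its control arrays, at 10.91, 10.32 and 10.28, spanned all the t(1;14) values of 10.62, 10.74 and 10.64.

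Cohesin genes moved in opposite directions in the t(1;14) boar. RAD21, the subunit that closes the cohesin ring in mitotic and meiotic cells, had the largest fall of the 50 genes: 9.58, 10.13 and 10.14 in controls, 9.72, 10.05 and 10.29 in the oligospermic arrays and 8.57, 8.14 and 8.31 in the t(1;14) arrays. Its log2 fold change was -1.61 ± 0.21 (3.06-fold lower, adjusted p = 0.00035, limma), and within the slides it was -1.45, -1.82 and -1.57. STAG2, the ring's regulatory subunit of somatic cells, read 9.62, 9.05 and 9.41 in controls, 9.36, 9.38 and 8.79 in the oligospermic arrays and 10.39, 10.39 and 10.53 in the t(1;14) arrays. The t(1;14) arrays were the highest, at a log2 fold change of 1.07 ± 0.20 (2.10-fold, adjusted p = 0.0022, limma); the call was lost without t(1;14) replicate 3 and with the median of its probes (0.88, adjusted p = 0.028, limma). The core ring protein SMC3 rose by 0.47 (adjusted p = 0.0079, limma), a call lost with slide as a block and without any one of the t(1;14) arrays, control replicate 2 or 3, or oligospermic replicate 1 or 2. SMC6, of the complex that removes joint molecules, rose by 0.52 (adjusted p = 0.0076, limma), a call lost without any one of the oligospermic or t(1;14) arrays or without control replicate 2 or 3. The condensin subunits parted: SMC2 rose by 0.69 (adjusted p = 0.00052, limma) and SMC4 gave 0.11 with an interval from -0.13 to 0.34.

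The sensors of double-strand breaks also moved unequally. NBN, the MRN subunit that recruits ATM, had the largest rise of the 50 genes. It read 9.03, 8.87 and 8.79 in controls, 8.78, 9.14 and 8.99 in the oligospermic arrays and 10.03, 10.14 and 10.01 in the t(1;14) arrays. Every t(1;14) array stood above every other array, and the fold change was 2.24 (log2 fold change 1.16 ± 0.12, adjusted p = 0.00011, limma). MRE11A, the MRN nuclease, rose by 0.66 (adjusted p = 0.0021, limma), and RAD50, the arm of the complex, gave 0.13 with an interval from -0.16 to 0.43. ATM, the kinase that signals breaks, gave 0.42 with an interval from 0.14 to 0.69 (adjusted p = 0.018, limma). Its t(1;14) arrays, at 9.81, 9.66 and 9.84, lay above the controls at 9.28, 9.24 and 9.54, and all 7 of its probes gave positive differences, from 0.22 to 0.77, none of them called. MDC1, an adaptor that spreads the break signal in chromatin, gave -0.56 with an interval from -1.15 to 0.03, and the lowest control array, at 6.502, lay among the t(1;14) values.

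Of the genes that act on exchanges once formed, MSH5 did not pass the test in any comparison without a block. The gene, whose protein stabilises crossover intermediates, gave 0.45 with an interval from 0.14 to 0.77 (adjusted p = 0.023, limma). The t(1;14) arrays, at 9.77, 9.79 and 9.63, all lay above the controls, at 9.46, 9.004 and 9.38, and with slide as a block the adjusted p was 0.0092, and 0.0087 against the oligospermic boar. Its 3 probes overlap one another and gave 0.38 to 0.45.

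Among the end joining genes XRCC6, a Ku subunit that caps broken ends for end joining, read 9.77, 9.74 and 9.81 in controls, 9.14, 9.41 and 9.62 in the oligospermic arrays and 8.48, 8.34 and 8.44 in the t(1;14) arrays. No groups overlapped, with controls highest and the t(1;14) arrays lowest. The t(1;14) log2 fold change from controls was -1.35 ± 0.13 (2.55-fold lower, adjusted p = 6.7e-05, limma), and the oligospermic difference of -0.38 did not pass the test (adjusted p = 0.26, limma). Its Ku partner XRCC5 gave -0.11 in the t(1;14) boar, with an interval from -0.37 to 0.15 that lies wholly above the XRCC6 interval of -1.65 to -1.05. RAD23B, which helps to recognise damage in nucleotide excision repair, read 10.81, 10.55 and 10.70 in controls and 11.67, 11.76 and 11.72 in the t(1;14) arrays (log2 fold change 1.03 ± 0.14, adjusted p = 0.00039, limma). ERCC1, a subunit of the excision nuclease, fell by 0.61 (adjusted p = 0.0062, limma), and its partner ERCC4 gave 0.33 with an interval from 0.04 to 0.62. The ERCC1 call was lost without t(1;14) replicate 1, 2 or 3, control replicate 2 or oligospermic replicate 2. Of its 5 probes 1 gave 0.55 (adjusted p = 0.080, limma), and the median of its probes was -0.48 (adjusted p = 0.021, limma). PARP1, the main sensor of single-strand breaks, gave 0.61 with an interval from 0.14 to 1.08 (adjusted p = 0.034, limma).

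Of the remaining roles, 0 of 3 Fanconi genes and 0 of 5 polymerase and translesion genes passed the test between t(1;14) and control, where 38.5% of all probes were called. In each role 1 gene had an unadjusted p under 0.05 (limma), as did 24614 of all 41105 probes. FANCI, of the pair that marks cross-links, gave 0.53 (adjusted p = 0.019, limma) against controls and rose by 0.65 against the oligospermic boar (adjusted p = 0.0067, limma), a call lost without any one of the t(1;14) arrays or oligospermic replicate 2 or 3. Among the other PARP genes PARP12 rose by 0.64 and PARP11 by 0.42, and the PARP12 call was lost without t(1;14) replicate 2 or 3, and the PARP11 call when any one of the 9 arrays was left out. PARP14 gave -1.11 (adjusted p = 0.040, limma), with control arrays at 6.77, 6.58 and 5.08 and t(1;14) arrays at 4.94, 5.08 and 5.09. A single control array thus read as low as the t(1;14) boar. POLDIP3, known for work in messenger RNA export and translation, fell by 0.99 (adjusted p = 8.3e-05, limma), from 8.90, 9.04 and 9.05 to 7.98, 8.12 and 7.92.

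Several probes were available for 17 of the genes. In the t(1;14) comparison the probes agreed in sign for 11 genes and differed in sign for 6. All 6 retained STAG2 probes were positive, from 0.78 to 1.21, and all 6 SMC3 probes were positive, from 0.21 to 0.72. Of 9 RAD23B probes, 8 were positive and 4 were called higher, but the probe at base 1334 of the transcript fell by 1.24 (adjusted p = 0.00013, limma). The pair at bases 2156 and 2160, which share 55 bases, gave 0.50 and 0.47. RAD23B was the only gene with calls in both directions.

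**Figure D4:**
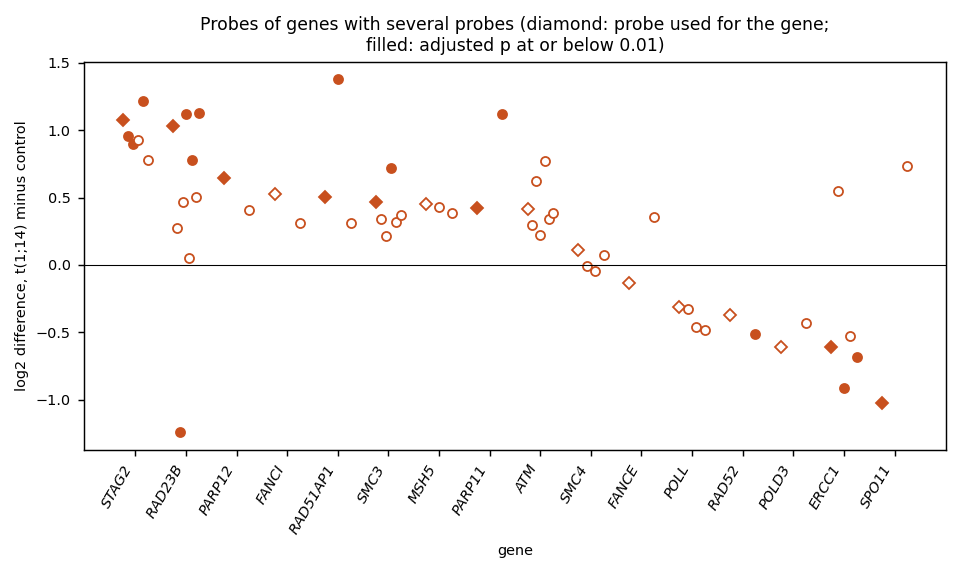
Log2 differences between t(1;14) and control for every retained probe of 16 of the genes with several probes; diamonds are the probes used for the gene, circles the other probes, and filled symbols have an adjusted p of at most 0.01. STAG2, SMC3 and ATM probes all lie above 0, and RAD23B has 1 filled circle at -1.24 among 8 positive probes.

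A pair of overlapping RAD51AP1 probes gave unlike patterns. They overlap over 54 bases and differ at 3 of them: C2T, C5T and G32A, with the base of the overlapping probe first, positions counted from 1 at its 5′ end, and the base of the probe used for the gene last. The probe used read 10.63, 10.71 and 10.40 in controls, 10.65, 10.71 and 10.53 in the oligospermic arrays and 11.07, 11.02 and 11.16 in the t(1;14) arrays. The overlapping probe read 9.96, 8.55 and 9.74 in controls, 10.80, 10.85 and 10.72 in the oligospermic arrays and 10.81, 10.74 and 10.83 in the t(1;14) arrays. On the second probe both boars stood above the controls, by 1.37 in the oligospermic boar (adjusted p = 0.10, limma) and by 1.38 in the t(1;14) boar (adjusted p = 0.0063, limma), and the control arrays spread over more than a log2 unit. PARP11 also had a second probe on which both boars lay above controls, by 0.80 in the oligospermic boar (adjusted p = 0.021, limma) and 1.12 in the t(1;14) boar.

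Some of the genes reported singly lie on the translocated chromosomes, by the chromosome of their symbol in the Sscrofa11.1 annotation. On chromosome 1 RAD23B and SMC2 rose in the t(1;14) boar and PARP16 gave -0.65 (adjusted p = 0.12, limma). On chromosome 14 SMC3 rose and POLL gave -0.31 (adjusted p = 0.084, limma). STAG2, which rose, is the only one of the 47 placed genes on chromosome X.

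Other genes of the same pathways that the symbol search did not cover are set against the same background of 20.0% of all probes called higher and 18.5% lower. Of 42 further meiotic genes listed, 11 were tested, and 4 rose and 3 fell in the t(1;14) boar, with a median log2 fold change of 0.44. HFM1, the helicase of crossover formation, rose by 1.01, while MAEL, of the transposon silencing pathway, fell by 1.60 and TEX15, needed for break repair in spermatocytes, by 1.51. Of 58 further cohesion and repair genes listed, 17 were tested, and 5 rose and 1 fell, with a median of 0.38. PCNA, the sliding clamp, rose by 0.98 and the cohesin regulator PDS5B by 0.91, and ATRIP, the partner of ATR, fell by 0.66. None of either list was called between the oligospermic boar and controls (limma), where 0.127% of all probes were called higher and 0.0973% lower. Of the 28 genes 1 had an unadjusted p under 0.05 (limma), as did 5331 of all 41105 probes.

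Markers of the cells of the testis were read in the same t(1;14) arrays, where 20.0% of all probes were called higher and 18.5% lower. Of 8 spermatid markers tested 7 fell, with a median log2 fold change of -1.95 and the largest fall, of 2.55, for the kinase gene TSSK2, and their summed level, in log2 units, was 18.002 to 18.09 in controls, 18.02 to 18.07 in the oligospermic arrays and 16.87 to 16.99 in the t(1;14) arrays. Of 8 spermatocyte markers that are not among the 50 genes, 1 rose and 2 fell, with a median log2 fold change of -0.26 (summed level 16.20 to 16.42, 16.49 to 16.60 and 15.73 to 15.85 in the same order), and of 5 spermatogonium markers 2 rose and none fell (11.81 to 12.33, 11.74 to 12.13 and 12.77 to 12.87). The spermatocyte sum is carried by its brightest probes, among them PGK2, a glycolytic enzyme of germ cells, which fell by 0.95, while the dim TBPL1 probe rose by 0.44.
Of 8 Leydig cell markers 7 rose, with a median of 1.73 and the largest rise, of 3.72, for the cholesterol carrier STAR (summed level 16.21 to 16.27, 15.96 to 16.30 and 17.23 to 17.31). Of 9 Sertoli cell markers 2 rose and 2 fell (14.84 to 16.06, 14.86 to 15.52 and 15.90 to 16.01). KRT18, 1 of the Sertoli rises, was well above background on none of the control arrays, and TF, 1 of the falls, on 1 of 3 t(1;14) arrays; without them 1 rose and 1 fell of 7. Of 8 peritubular and vascular markers 2 rose and 1 fell (13.79 to 14.66, 13.89 to 14.43 and 13.91 to 14.33). Of 5 immune markers 1 rose (8.23 to 8.82, 8.23 to 8.44 and 8.92 to 9.05), and of 7 markers of cycling cells 1 rose and 2 fell (14.55 to 14.61, 14.55 to 14.64 and 14.44 to 14.56). No marker of any list was called between the oligospermic boar and controls (limma). An unadjusted p under 0.05 (limma) was found for 7 of 58 markers and for 5331 of all 41105 retained probes. Among the 7 markers the luteinising hormone receptor LHCGR gave 0.94 with an interval from 0.50 to 1.38 (adjusted p = 0.065, limma). KIT, a receptor of differentiating spermatogonia, gave -0.82 (adjusted p = 0.095, limma). The part of these shifts in the results on the 50 genes was not tested.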

How the data were processed

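RNA of 9 testis samples, 3 per group, was labelled with Cy3 and hybridised to single-colour Agilent porcine arrays. The authors deposited Feature Extraction output, in which each spot has an intensity in linear units after background subtraction, and a table of normalised log2 values for 38759 probes. Per the authors' methods, spots of sufficient quality in 2 of 3 replicates were kept, values were log-transformed and quantile normalised, and limma was used.

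Here log2 processed signals of the 9 arrays were quantile normalised together, and 41105 probes were kept that were well above background, with no outlier flag, on at least 2 of 3 arrays of a group. A single limma fit (version 3.58.1, R 4.3.3) gave the 3 comparisons, adjusted by Benjamini-Hochberg over all retained probes. The fit was tested on simulated data. Genes were called at an adjusted p of at most 0.01; SE and 95% intervals come from the same fit. Each gene was represented by the probe with the highest mean in the deposited log2 table. The small number of arrays limits the precision.

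The genes described singly are those meeting the strict rule, the 10 largest rises and 10 largest falls called between t(1;14) and control, the 5 largest each way in the other comparisons, a set of core meiotic genes, and up to 3 called genes of each further list; other genes were added to complete a complex or because their values stood out, after the values were seen. The members, lists and tests were chosen with earlier results of these data known. Deviations from the group mean were correlated between arrays of equal replicate number. For oligospermic and control arrays, where the number is also the slide, the correlations were 0.48, 0.14 and 0.10. There, pairing by number cannot be told from a shared slide. For t(1;14) and control arrays they were -0.28, -0.19 and 0.14 by number, and 0.34, 0.11 and 0.12 by slide. For t(1;14) and oligospermic arrays they were -0.42, -0.33 and 0.12 by number, and 0.49, 0.29 and 0.33 by slide. Alternatives covered background correction, scaling, filter, probe choice, slide and replicate blocks, the variance trend, and leaving out each array. Of the 50 genes, 3 entered the counts and medians but are not reported singly here, and the plots leave them out.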

Additional observations from a re-analysis of the deposited data

How the results depend on the processing

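Against controls, the number of genes higher in t(1;14), 13, was 8 when the 6 arrays of the comparison were normalised alone and 8 with the replicate block, whose numbers do not pair these arrays; leaving out single arrays gave 6 to 13, with 8 without oligospermic replicate 2, 8 without t(1;14) replicate 1, 7 without replicate 2 and 6 without replicate 3. The number lower stayed between 4 and 8. The share of all probes called under each alternative is not given here. The median log2 fold change of 0.18 was 0.046 with scaling to the 75th percentile and 0.11 to 0.27 when single arrays were left out, with 0.27 without control replicate 1 and 0.11 without control replicate 3. At a log2 fold change of at least 1 the differential genes numbered 7 against controls and 6 against the oligospermic boar, in place of 0. The share of all probes meeting that cut is not given here, so these counts cannot be set against it.

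The only gene differential in the oligospermic boar, SPO11, numbered 0 under normexp, under the median signal without background subtraction, with the 6 arrays alone, with slide as a block, with the replicate block (adjusted p = 0.026, limma) and with the median of a gene's probes, and 0 to 1 without single arrays. The number lower there was likewise 0 with the 6 arrays alone, slide as a block, the replicate block and the median of probes, and 0 to 1 without single arrays; the log2 fold change of SPO11 ran from -2.36 to -1.70. No gene among the 50 that was called in a comparison reversed under these alternatives, which were not run for the genes of the further lists. Over the 19 genes called between t(1;14) and control the call was lost in 74 of 380 values, most often for SMC3 and PARP11 (13 of 20 each), and over the 18 called between t(1;14) and the oligospermic boar in 49 of 360. The called genes outside the naming rule were added after seeing the data. Uncalled genes changed sign in 16 of 200 values in the oligospermic comparison. The cause of these shifts was not tested.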

Other observations

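Synaptonemal complex genes, absent from the search because their probes carry no such symbol, could be read from probe descriptions, a choice made after the annotation was read. In the t(1;14) boar a probe described as SYCP2, a protein of the lateral element, rose by 0.57 on the log2 scale (adjusted p = 0.0031, limma), and a second one gave 0.21 (adjusted p = 0.28, limma). A probe described as SYCP3-like rose by 0.84 (adjusted p = 0.0042, limma), 1 described as central element protein SYCE1 by 0.66 (adjusted p = 0.0048, limma) and 1 described as SYCE2 by 0.94 (adjusted p = 0.0004, limma). A second SYCE1 probe, well above background on 2 of 3 control arrays, gave 0.78 (adjusted p = 0.076, limma). Of the probes described as repair genes, 1 for Fanconi group B was well above background on 1 of 3 control arrays and 3 of 3 t(1;14) arrays and was not called. Others fell: one described as MSH3, of mismatch repair, fell by 0.78 (adjusted p = 0.00094, limma), and 1 described as Fanconi group C fell by 2.20, from 7.29, 7.62 and 7.65 in controls and 7.56, 7.26 and 7.44 in the oligospermic arrays to 5.31, 5.53 and 5.13 (adjusted p = 1.3e-05, limma).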
